A study of Mus musculus with 6 samples.

Results

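The genes described here encode surface proteins by which blood stem and progenitor cells are sorted. They were compared between RNA left on the inner surface of the mouse femoral shaft (endosteal) and RNA of the marrow flushed from the same shafts (central). The members were taken by symbol from a list of 8 genes, Ly6a, Procr, Slamf1, Cd48, Cd34, Flt3, Esam2 and Cd27, and all probe sets annotated to one of them alone were kept. This gave 8 probe sets for 6 genes, out of 45037 probe sets on the array and 18193 genes measured. Slamf1 had 3 probe sets and Procr, Cd48, Cd34, Flt3 and Cd27 had 1 each. Ly6a and Esam2 matched no probe set in the annotation used here and were not analysed. This does not show that the array lacks probes for them. Esam, the endothelial cell adhesion molecule, which is also used to sort stem cells, is described beside the 6 genes and is not counted among them.

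RNA came from femurs of 3 male C57BL/6 mice aged 8 weeks, all of which had received saline intraperitoneally. Muscle and periosteum were scraped and rubbed off, the metaphyses were cut away, and the shaft was flushed with buffered saline holding calf serum. The flushed cells were spun down and lysed in Trizol, a phenol reagent, as the central sample, and Trizol passed through the emptied shaft gave the endosteal sample. There were 3 central and 3 endosteal arrays, lettered A to C within each region, with no other treatment, genotype or age in the series. Both samples are mixtures, so fewer cells of a type and less RNA per cell cannot be told apart. Only the central cells were suspended and spun down before they were lysed. Signals of single arrays are given in letter order.

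Blood stem cells are rare in marrow and are recognised by combinations of surface proteins. In the mouse, long-lived stem cells display the SLAM receptor encoded by Slamf1 and lack that encoded by Cd48, whereas Cd48, Cd34, Flt3 and Cd27 mark progenitors to different degrees. None of these proteins is limited to stem cells. Cd34, Procr and Esam are also made by endothelium, Cd48 by most white blood cells, Cd27 by lymphocytes, Flt3 by dendritic cell precursors, and Slamf1 by lymphocytes and mast cells.

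None of the 6 marker genes passed the test between the regions, and they pointed in both directions, with Procr and Slamf1 above 0 and Cd48, Cd34, Flt3 and Cd27 below it. Of the 6 genes, each represented by its probe set of highest mean signal, limma called 0 higher and 0 lower at an adjusted p of 0.05 in the endosteal samples, and 1 (Cd48, lower) had an unadjusted p under 0.05. Of all 18193 genes, 11.9% were called in either direction (7.92% higher and 4.02% lower). At an unadjusted p under 0.05 by limma there were 5314 of these 18193 genes (3253 higher and 2061 lower). Of the 8 probe sets tested singly, 1 of Slamf1 was called higher and 0 were called lower, beside 3.21% of all probe sets called higher, 1.29% lower and 4.5% in either direction. The median log2 difference of the 6 genes was -0.14, and that of all genes was 0.10. All log2 differences are endosteal minus central on the scale log2(signal + 16), which understates changes of low signals. The regions did not overlap for 4 of the 8 marker probe sets (3 higher, 1 lower) and for 2 of the 6 genes (1 higher, 1 lower), beside 31.4% of all probe sets (17.8% higher, 13.6% lower) and 37.7% of all genes (22.3% higher, 15.4% lower).

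**Figure D1:**
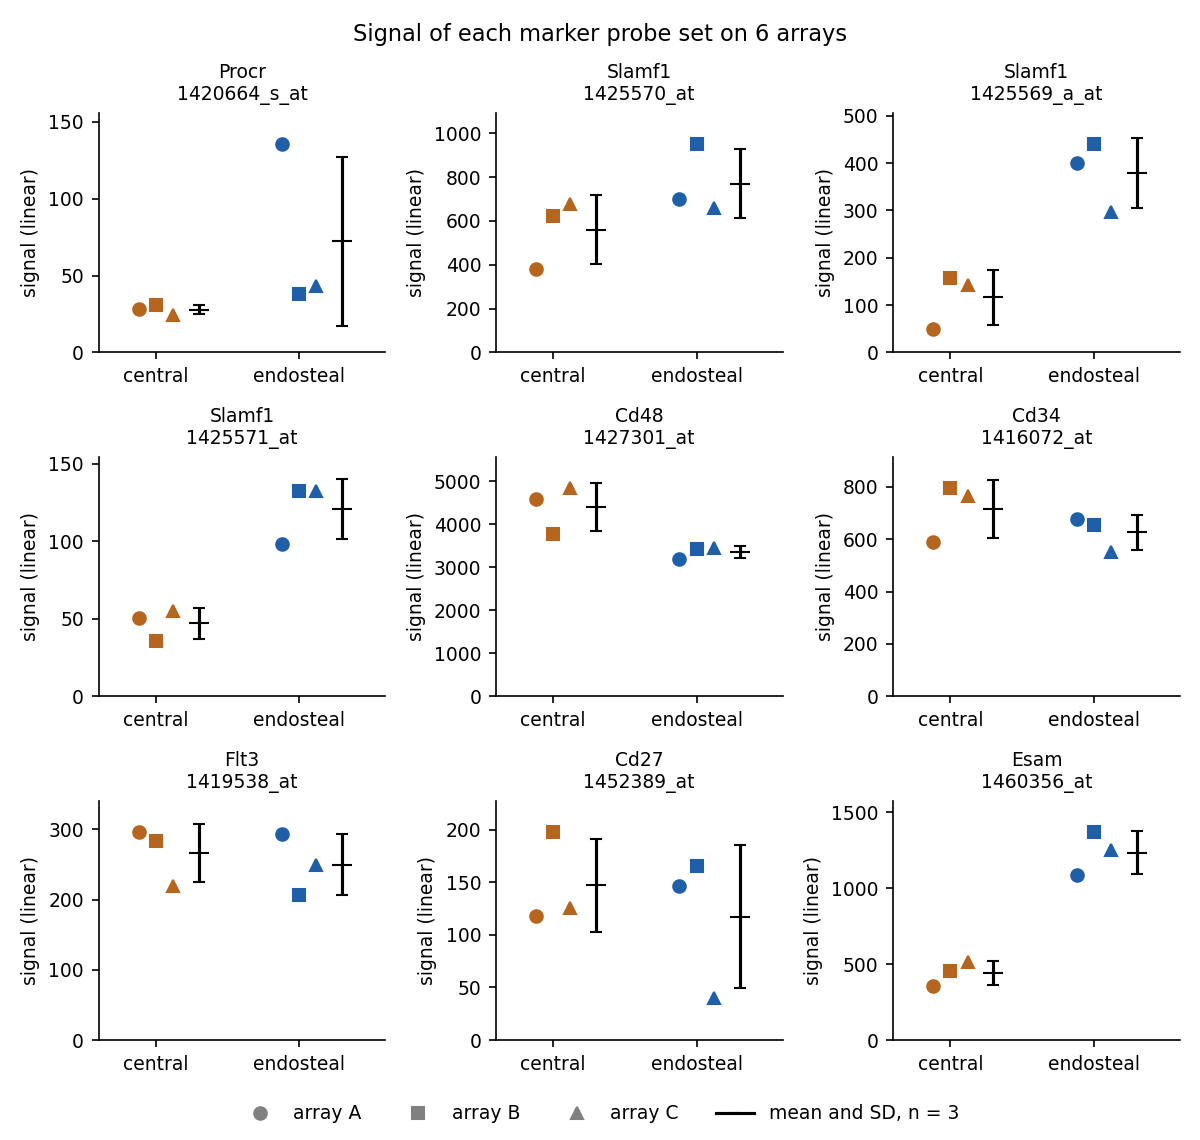
Signal (linear scale) of the 8 probe sets of the 6 markers and of Esam on each of 3 central (brown) and 3 endosteal (blue) arrays, with the mean and SD over 3 arrays. Regions do not overlap for Slamf1 1425569_a_at and 1425571_at, Procr and Esam (endosteal higher) or for Cd48 (endosteal lower), and they overlap in the other panels.

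Slamf1 and Cd48 carry the sequences shown here, because Slamf1 held the called probe set, Cd48 pointed the other way, and the genes lie in one cluster of SLAM receptor genes on chromosome 1. In the RefSeq table of GRCm38.p6, 1 gene listed as protein-coding (Tma7-ps) stands between them. The windows are 150 bases long and end just before the start site of the RefSeq promoter table, build GRCm38.p6, plus strand, at chr1:171766981-171767130 for Slamf1 and chr1:171681841-171681990 for Cd48. Capitals mark a match to any of 3 motifs searched on both strands. The motif of RUNX factors was spelled TGTGGT, a core that these regulators of blood formation bind. The motif of GATA factors was spelled AGATAA, and that of ETS factors was spelled CGGAA.
Slamf1: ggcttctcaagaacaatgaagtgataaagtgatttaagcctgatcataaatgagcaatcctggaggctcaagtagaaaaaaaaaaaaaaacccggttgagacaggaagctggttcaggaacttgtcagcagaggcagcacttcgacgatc
Cd48: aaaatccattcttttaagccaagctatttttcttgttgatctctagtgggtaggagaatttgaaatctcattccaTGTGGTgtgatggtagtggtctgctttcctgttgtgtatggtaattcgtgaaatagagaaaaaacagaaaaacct
The Cd48 window held 1 match, to the RUNX motif, and the Slamf1 window held 0 matches. Among 32851 promoter windows of this length, 8.39% held the RUNX motif, 5.67% the GATA motif and 18.7% the ETS motif on either strand. The motifs were chosen after the sequences had been seen, and a match describes letters only. Other spellings were not searched, so 0 matches does not mean that a window lacks sites of these factors.

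Slamf1, the SLAM receptor of long-lived stem cells, had higher mean signals in endosteal RNA at all 3 of its probe sets, but the size and the call depended on the probe set. At 1425571_at the signals were 50.4, 35.7 and 54.6 in the central samples and 98.3, 132 and 132 in the endosteal samples. Every endosteal array lay above every central array, and this probe set rose by 1.12 (SE 0.20, 95% interval 0.62 to 1.62, limma adjusted p = 0.0428 over all probe sets), or 2.18-fold. These are low signals, at the 34.7th percentile of probe sets on the central and the 48.8th on the endosteal arrays. The call was lost in 11 of 12 alternatives, among them the letter as a block (adjusted p = 0.143), quantile normalisation (0.80, adjusted p = 0.110) and each omission of 1 array (adjusted p 0.0653 to 0.128).

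At 1425569_a_at the Slamf1 signals were 49.7, 157 and 143 in the central samples and 401, 440 and 298 in the endosteal samples. Central A was the lowest array and the regions did not overlap. The log2 difference was larger than at the other probe sets, 1.68, but so was its error (SE 0.41, 95% interval 0.67 to 2.70), and it did not pass over all probe sets (limma adjusted p = 0.0830). It passed with pseudocount 64, among probe sets above the median level and with an intensity trend (adjusted p = 0.0325, 0.0209 and 0.0105).

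The brightest Slamf1 probe set, 1425570_at, which represents the gene, gave 381, 622 and 676 in the central samples and 700, 950 and 658 in the endosteal samples. Here the regions overlapped, with endosteal C below central C. The log2 difference of 0.47 did not pass (SE 0.27, 95% interval -0.20 to 1.14, limma adjusted p = 0.314 over genes). The mean of the 3 probe sets changed by 1.09 and passed over genes (adjusted p = 0.0441). All 3 probe sets cite the same sequence record in the annotation, and they are not independent measures of the gene.

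Cd48, the SLAM family protein absent from long-lived stem cells and present on most white blood cells, had the brightest probe set among the markers against the other probe sets of its arrays, at the 96.4th percentile on central arrays. Its signals were 4585, 3773 and 4845 in the central samples and 3201, 3434 and 3441 in the endosteal samples. All endosteal arrays lay below all central arrays, with means of 4401 ± 559 and 3359 ± 136 (SD, n = 3). The log2 difference of -0.38 (SE 0.14, 95% interval -0.74 to -0.02) did not pass over genes (limma adjusted p = 0.149). It passed under 3 of 14 alternatives over genes: with every array centred on its median (-0.64, adjusted p = 0.0477), among genes above the median level (adjusted p = 0.0439) and with an intensity trend (adjusted p = 0.0243). In the fit over probe sets the 95% interval included 0 (-0.78 to 0.02, limma adjusted p = 0.242). There Cd48 passed under 1 of 13 alternatives.

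**Figure D2:**
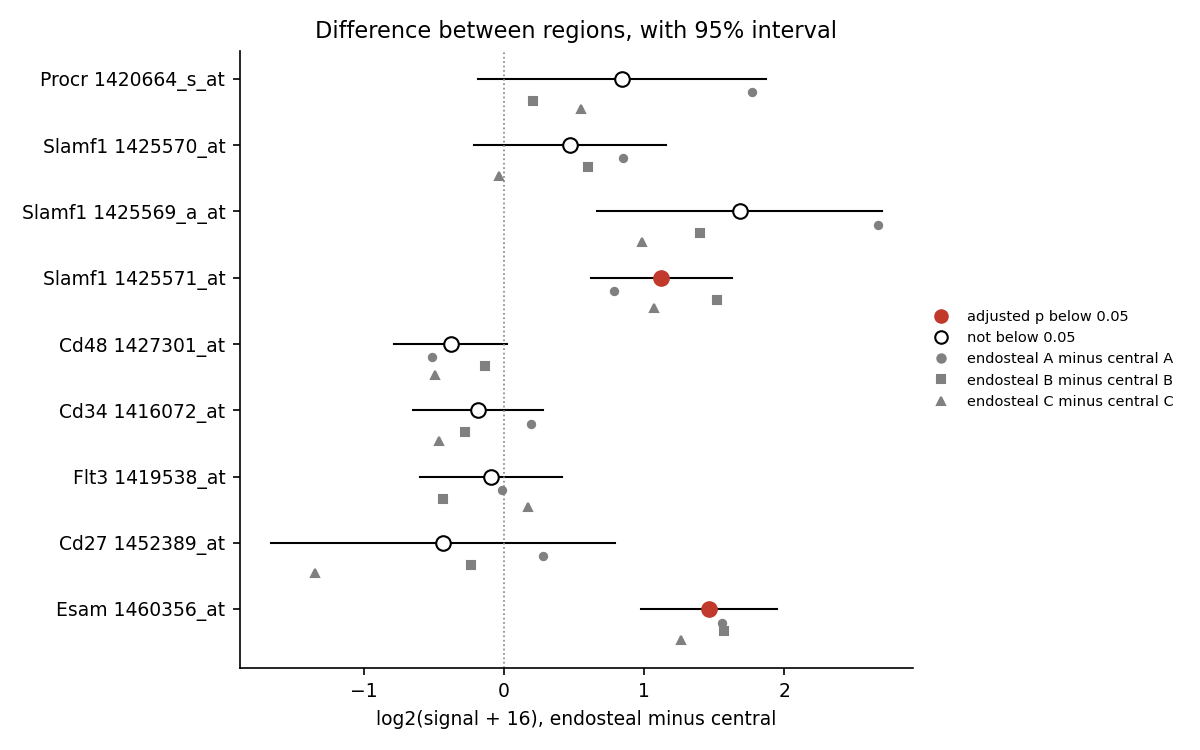
Endosteal minus central difference of log2(signal + 16) for the 8 probe sets of the 6 markers and for Esam, with the 95% interval of the limma fit over probe sets and, in grey, the difference between arrays of the same letter. Filled red points (Slamf1 1425571_at at 1.12 and Esam at 1.46) passed at an adjusted p of 0.05, and the intervals of Procr, Slamf1 1425570_at, Cd48, Cd34, Flt3 and Cd27 include 0.

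Cd34, a sialomucin of progenitors and of endothelium, had signals of 590, 795 and 764 in the central samples and 675, 653 and 550 in the endosteal samples. The regions overlapped, and the log2 difference was -0.18 (SE 0.17, 95% interval -0.61 to 0.24, limma adjusted p = 0.534 over genes). The difference stayed between -0.45 and -0.10 over all alternatives.

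Flt3, the receptor tyrosine kinase of multipotent and lymphoid progenitors and of dendritic cell precursors, had signals of 296, 284 and 220 in the central samples and 293, 206 and 249 in the endosteal samples. The arrays of the regions were interleaved. With the smallest difference among the 6 genes, -0.09 (SE 0.19, 95% interval -0.56 to 0.38, limma adjusted p = 0.790 over genes), it pointed up without endosteal array B (0.030).

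Cd27, a TNF receptor family member of lymphocytes and of progenitors, gave 118, 198 and 126 in the central samples and 146, 166 and 39.7 in the endosteal samples. Endosteal C was the lowest array, and endosteal A and B lay within the central range. The log2 difference of -0.44 (SE 0.50, 95% interval -1.67 to 0.80, limma adjusted p = 0.617 over genes) rested on that array, since it was 0.11 without it. The interval is wide enough to hold changes of more than 2-fold downward, so this probe set bounds little.

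Procr, the endothelial protein C receptor, which marks stem cells as well as vessels, had signals near the bottom of the array. It gave 28.4, 30.9 and 24.6 in the central samples and 135, 38.1 and 43.4 in the endosteal samples, at the 25.6th percentile of probe sets on central arrays. Every endosteal array lay above every central one, but endosteal A stood far above B and C. The log2 difference of 0.84 (SE 0.41, 95% interval -0.18 to 1.87, limma adjusted p = 0.247 over genes) was 0.37 without endosteal A (adjusted p = 0.188). Its probe set name ends in _s_at, which the manufacturer uses where probes match several transcripts.

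Esam, an adhesion molecule of endothelial junctions and of stem cells, was higher in endosteal RNA. Its signals were 357, 452 and 512 in the central samples and 1083, 1370 and 1248 in the endosteal samples. The regions were far apart against the spread between replicates, with means of 440 ± 77.9 and 1234 ± 144 (SD, n = 3) and a log2 difference of 1.46 (SE 0.18, limma adjusted p = 0.0111 over genes), or 2.76-fold. Differences between same-letter arrays were 1.56, 1.57 and 1.26 for A, B and C. With the letter as a block the limma adjusted p was 0.0536 over genes and 0.104 over all probe sets. Without the block it was 0.0222 over all probe sets. Leaving out 1 array gave 0.0529 to 0.0865 there, whereas the call over genes held under each of these omissions.

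Other sort markers of stem and progenitor cells split in both directions. Of 28 measured, 5 were called higher and 3 lower, beside 7.92% and 4.02% of all genes. Their median was 0.18, and with the letter as a block 1 was called higher and 0 lower. The 5 were Emcn (2.77), Tek (2.44), Vcam1 (1.56), Robo4 (1.50) and Cd9 (0.85), of which Emcn, Tek and Robo4 stand in the endothelial list too. Tek encodes the angiopoietin receptor and had signals of 55.7 ± 15.4 and 366 ± 17.8 (SD, n = 3). The 3 lower ones were the cytokine receptor genes Csf2rb (-1.13) and Csf3r (-0.95) and the chemokine receptor gene Cxcr4 (-0.73). Prom1 and Alcam, surface proteins of immature blood cells among others, did not pass (0.12 and -0.32, limma adjusted p = 0.768 and 0.545).

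The SLAM family, to which Slamf1 and Cd48 belong, had 9 genes on the array. The limma fit called 1 of them lower and 0 higher (median -0.19), beside 4.02% and 7.92% of all genes. At an unadjusted p under 0.05, 0 were higher and 2 lower, beside 3253 and 2061 of all 18193 genes. The gene called was Slamf7, a receptor of natural killer and plasma cells, at -0.79 (limma adjusted p = 0.0443; 0.0863 with the letter as a block). Slamf1, at 0.47, had the largest positive value of the 9, and the next were Cd84 at 0.19, Slamf8 at 0.19 and Ly9 at 0.13, none of which passed. Cd244a, which encodes a receptor that binds the Cd48 protein, gave 327 ± 60.5 in central and 289 ± 82.1 in endosteal RNA. Its difference of -0.19 did not pass (limma adjusted p = 0.662).

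Of 9 measured ligands and partners of the markers, 2 were called higher and 0 lower, beside 7.92% and 4.02% of all genes. Their median was 0.20, and with the block 0 were called higher and 0 lower. F2r, the thrombin receptor through which the protein C pathway of Procr signals, rose by 1.52 from 792 ± 184 to 2262 ± 95.1 (limma adjusted p = 0.0116). Sh2d1a, the adaptor of SLAM receptors, rose by 1.12 (adjusted p = 0.0213) from a low signal, 34.1 ± 0.960 to 94.3 ± 21.9. At an unadjusted p under 0.05, 2 genes of this list were higher and 1 lower. The lower one, Cd2, gave 529 ± 88.7 in central and 323 ± 52.4 in endosteal RNA. Its difference of -0.68 did not pass (limma adjusted p = 0.0790). The ligand genes Cd70, for Cd27, and Proc, for Procr, had low signals in both regions (33.6 ± 28.5 and 55.6 ± 42.3 for Cd70, 25.2 ± 22.9 and 33.9 ± 30.7 for Proc). Their spread between replicates was about as large as their means, and neither passed (log2 differences 0.45, SE 0.68, adjusted p = 0.714, and 0.19, SE 0.61, adjusted p = 0.869).

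**Figure D3:**
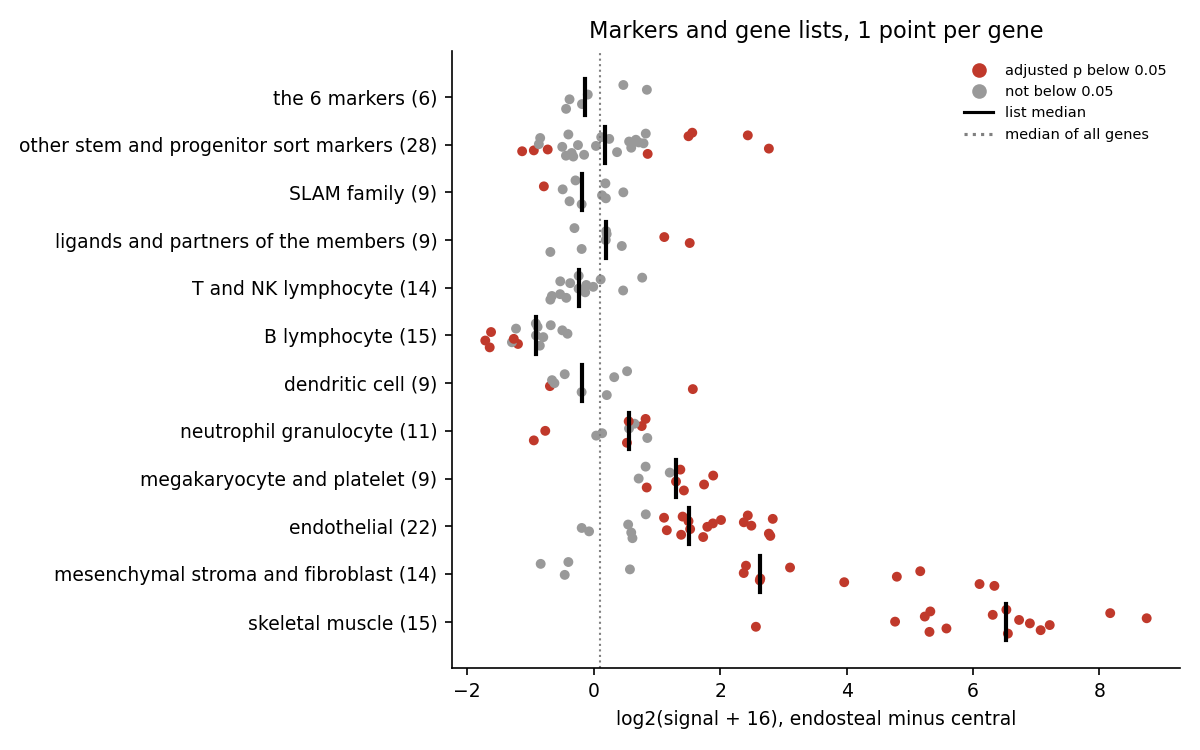
Endosteal minus central difference of log2(signal + 16), 1 point per gene, for the 6 markers and 11 gene lists, with list medians (black) and the median of all genes (dotted, 0.10). Red points passed limma at an adjusted p of 0.05; the 6 markers hold none and lie between -0.44 and 0.84.

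Genes of endothelium, which also makes several of these proteins, and of other cell types were called on the same arrays. Of all genes, 7.92% were called higher and 4.02% lower. Of 22 endothelial genes, 16 were called higher and 0 lower, with a median of 1.51 and a summed signal of 4240 to 5826 on central and 10670 to 12334 on endosteal arrays (1 higher with the block). Sox18, Clec14a, Emcn and Mmrn2 had the largest of these increases, at 2.83, 2.79, 2.77 and 2.49. Of 9 megakaryocyte and platelet genes, 6 were called higher and 0 lower (median 1.30), led by Pf4 (1.89) and Gp6 (1.75), and their summed signal was 28572 to 54629 on central and 98997 to 116716 on endosteal arrays. Of 14 mesenchymal genes, 10 were called higher and 0 lower (median 2.63). Of 15 skeletal muscle genes, 15 were called higher (median 6.53), with a summed signal of 897 to 1482 on central and 82512 to 167320 on endosteal arrays. The lists were chosen with earlier results of these data known, so 15 of 15 describes this list and is not a test of it. With the letter as a block, 0 megakaryocyte, 5 mesenchymal and 12 muscle genes were called higher. Their part in the Slamf1 and Esam differences was not tested.

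Lymphocyte, dendritic cell and neutrophil genes, from cell types among the wider sources of Cd48, Cd27 and Flt3, went in different directions. Among all 18193 genes, 7.92% were called higher and 4.02% lower. Of 14 T and NK lymphocyte genes, 0 were called by limma in either direction (median -0.24). At an unadjusted p under 0.05, 1 was higher and 2 were lower, beside 3253 and 2061 of all 18193 genes. The summed signal was 4743 to 5553 on central and 4745 to 6070 on endosteal arrays. Its largest term was Nkg7, with means of 1747 and 2974. The regions did not overlap for 1 higher gene (Nkg7) and 3 lower genes (Cd2, Cd3d and Gzma), beside 22.3% and 15.4% of all genes. The B lymphocyte list had 15 genes, of which limma called 5 lower and 0 higher (median -0.91), led by Cd79a at -1.71. At an unadjusted p under 0.05 by limma, 9 were lower and 0 higher. The regions did not overlap for 9 lower and 0 higher genes of this list. The summed signal of the 15 genes was 26386 to 41574 on central and 10406 to 20517 on endosteal arrays. Of 9 dendritic cell genes, 1 was called lower, the transcription factor gene Irf8 (-0.69), and 1 higher, Cox6a2 (1.57), a cytochrome oxidase subunit that striated muscle also makes. At an unadjusted p under 0.05 by limma, 3 of the 9 were lower and 1 was higher (median -0.19). The summed signal of this list was 11475.5 to 11545.8 on central and 9811.97 to 10712.5 on endosteal arrays. Of 11 neutrophil genes, 4 were called higher and 2 lower (median 0.55), with S100a9 at 0.82 and Csf3r at -0.95. With the letter as a block, 1 B lymphocyte gene was called lower and 0 genes of the T and NK, dendritic cell and neutrophil lists were called. The part of these cell types in the Cd48, Cd27 and Flt3 values was not tested.

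Among 9092 genes above the median level, the one whose profile over the 6 arrays lay nearest to Cd48 was Ctbs, at a root mean square difference of 0.05 on the log2 scale after centring each gene, followed by Mon1a (0.05). For Cd34 these were Rab27a and Taok1 (0.05 and 0.05), and for Flt3 Specc1l and Exoc3 (0.05 and 0.05). Slamf1, by its brightest probe set, lay nearest to Itga6, an integrin gene that is itself used in sorting (0.08), and to Csgalnact1 (0.09). Procr lay nearest to Pde4d and Il1rl2 (0.20 and 0.21), and Cd27 to Wnt7a and Smc4 (0.16 and 0.27). The distances were not scaled to the spread of each gene, which was largest for Procr and Cd27 (SE 0.41 and 0.50). They are therefore not comparable between markers. These likenesses describe 6 arrays only.

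**Figure D4:**
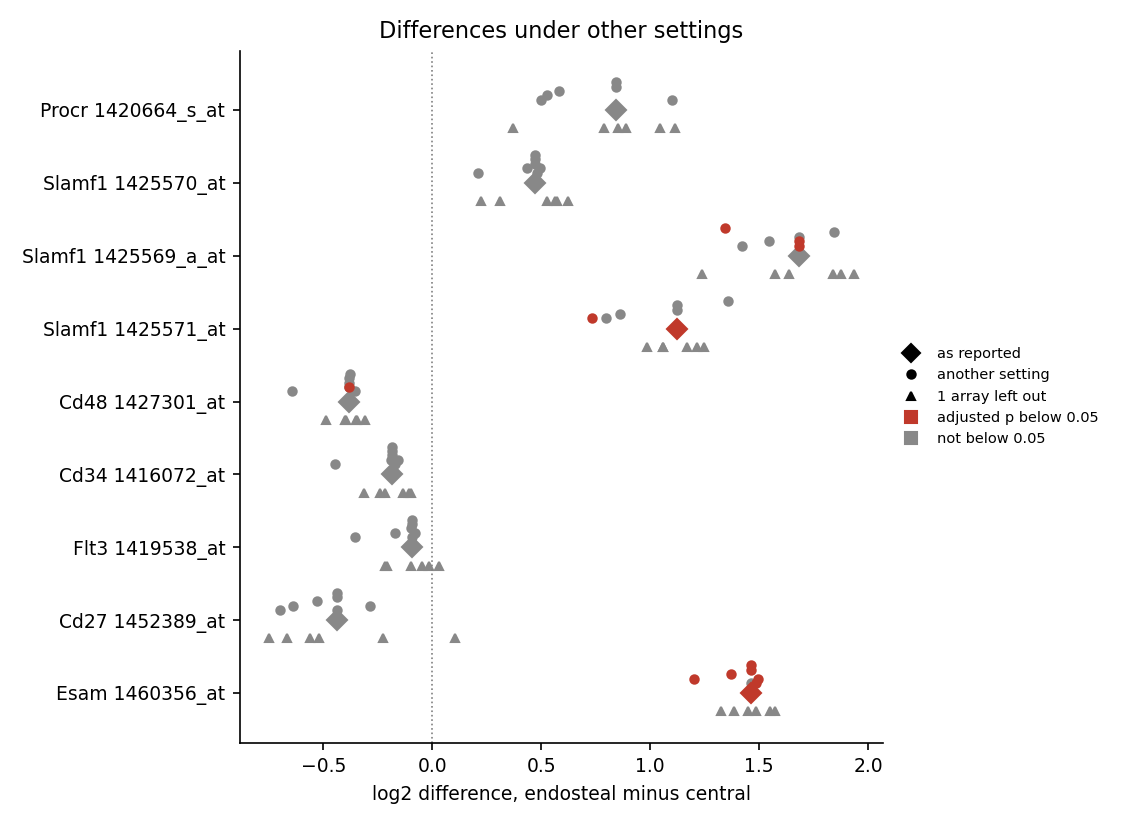
Endosteal minus central log2 difference of each probe set as reported (diamonds), under other settings (circles) and with 1 array left out (triangles), red where the adjusted p over probe sets was below 0.05. Slamf1, Procr and Esam stayed above 0 and Cd48 and Cd34 below 0 throughout, whereas Flt3 and Cd27 crossed 0 when 1 array was left out.

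Median centring moved all values alike, and quantile normalisation did not. The median signal was 97.2 to 106 on central and 120 to 131 on endosteal arrays, and the median difference of all genes was 0.10 as deposited, 0.02 after quantile normalisation and -0.16 under median centring, a shift of -0.26. Under median centring Slamf1 was 0.21, 1.42 and 0.86 at 1425570_at, 1425569_a_at and 1425571_at, Procr 0.58, Cd48 -0.64, Cd34 -0.45, Flt3 -0.35, Cd27 -0.70 and Esam 1.20, so that no sign changed. Quantile normalisation moved Slamf1 1425571_at by -0.32, Procr by -0.32 and Cd27 by -0.21, but Cd48 by 0.03, Cd34 by 0.03 and Slamf1 1425570_at by 0.02. Replicate arrays correlated at 0.971 to 0.973 in central and 0.944 to 0.946 in endosteal RNA over genes. No 2 arrays held identical values.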

How the data were processed

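The deposited values are the authors' signals on a linear intensity scale, for 45101 probe sets on 6 arrays. How the probes were summarised and whether background was removed is not given in the sources used here. Each array had the same mean after trimming 2% at each end (500.003), so the authors appear to have scaled each by 1 factor. Between 15.9% and 20.1% of signals on an array were below 16. The number of arrays limits the precision.

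Leaving out 64 control probe sets, the platform annotation named 1 gene for 34945 probe sets, several for 932 and none for 9160; symbols were looked up by gene identifier in RefSeq (GRCm38.p6) for 34741, and 0 changed. RefSeq promoters were matched for all 6 genes.

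Signals were transformed as log2(signal + 16) and compared with limma 3.58.1 in R 4.3.3 (lmFit, eBayes, region as the only term, two-sided), with Benjamini-Hochberg adjustment at 0.05. One fit used 18193 genes, each by its probe set of highest mean signal, and the other all 45037 probe sets. Arrays of 18193 genes were simulated with the spread of each gene between replicates, and 200 genes were changed. The gene fit recovered 28.4% of log2 changes of size 1, 54.0% of size 2 and 91.4% of size 4. Of its calls, 5.65% were false. In the data 2172 genes were called, so these shares do not measure how often the reported test finds such changes.

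The named genes are the 6 markers, up to 4 called genes of a list in its main direction and up to 2 in the other by size, and the 2 genes of nearest profile for each marker. Other list members were named after their values had been seen. The members and lists were chosen with earlier results of these data known. The lists are other sort markers, the SLAM family, ligands and partners, endothelial, mesenchymal, T and NK, B, dendritic, megakaryocyte, neutrophil and skeletal muscle genes.

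With 3 mice and 2 regions, an array letter probably stands for 1 mouse, which the labels do not say. After region means were taken off, arrays sharing a letter correlated at 0.05, 0.04 and 0.01 (all genes) or 0.26, 0.13 and 0.10 (the brighter genes, above the median). The letter as a block is an alternative. The others were pseudocounts 1 and 64, quantile normalisation, median centring, a filter at the median level, the mean of a gene's probe sets, an intensity trend and leaving out each array.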

Additional observations from a re-analysis of the deposited data

How the results depend on the processing

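Of the 6 marker genes, 0 were called higher and 0 lower as reported. The mean of all probe sets called 1 higher (Slamf1), while median centring, the filter at the median level and the intensity trend each called 1 lower (Cd48). Of 8 marker probe sets, 1 was called higher as reported. The number was 0 with pseudocount 1, 0 after quantile normalisation, 0 after median centring, 0 with the replicate block and 2 with pseudocount 64. It stayed at 1 with the intensity trend and above the median level. There the probe set called was Slamf1 1425569_a_at in place of 1425571_at. The intensity trend also called 1 lower (Cd48). Leaving out 1 array gave 0 calls in every case, higher or lower, for genes and for probe sets of the markers. Among the markers and Esam, the calls that leaving out an array ended were those of Slamf1 1425571_at and, over probe sets, Esam. Called genes of the lists were not followed singly. Flt3 turned to 0.030 without endosteal array B and Cd27 to 0.11 without endosteal array C, and without single arrays they ranged from -0.22 to 0.030 and from -0.75 to 0.11; the signs of the other markers held under the alternatives run.

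Over all genes, 1441 were called higher and 731 lower. The counts were 951 and 1786 after median centring, 2215 and 1693 with the intensity trend, 143 and 6 with the replicate block, 1105 lower with pseudocount 64, 1725 lower above the median level, and 549 to 928 higher and 101 to 307 lower without 1 array. Over all probe sets, 1444 were higher and 582 lower. These became 857 and 232 with pseudocount 1, 2382 and 1466 with pseudocount 64, 2778 and 2715 above the median level, 3420 and 2913 with the intensity trend, 1927 lower after median centring, 0 and 0 with the replicate block (5532 and 3693 at an unadjusted p under 0.05 by limma), and 210 to 868 higher and 5 to 181 lower without 1 array. The causes were not tested.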
